A study of Mus musculus with 12 samples.

Results

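The AMPA and NMDA receptor subunits examined here are 10 genes: the AMPA subunits GRIA1, GRIA2, GRIA3 and GRIA4, and the NMDA subunits GRIN1, GRIN2A, GRIN2B, GRIN2C, GRIN2D and GRIN3A. They were found by gene symbol in a deposited table of 13957 distinct symbols. Above the lesion, 9 of the 10 were listed among 13647 genes. Below it, 5 of the 10 were listed among 12338 genes, and these were GRIA2 and the whole GRIN2 family. GRIA1 was listed at neither site, and GRIA3, GRIA4, GRIN1 and GRIN3A were listed only above the lesion. For a subunit that was not listed, no level is given here.

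RNA-seq was carried out on mouse spinal cord 14 days after a contusion at thoracic level 9. All mice were males, 4 months of age, and carried human ApoE4 in place of the mouse apolipoprotein E gene. At each site, mice with an intact synj1 gene (synj1+/+) were set against mice with 1 inactive allele (synj1+/-), which asks how lower synj1 dosage changes RNA levels around the injury. There were 12 libraries in 4 groups, with 3 libraries per group, from tissue just above or just below the lesion, and every group was injured. The labels do not tie the libraries above the lesion to those below it, so both may come from the same mice. Mice with ApoE3 were not analysed here.

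For each gene, site and genotype label, the deposited table holds a single value that combines the 3 libraries. The lowest value is exactly 1, so the values were read as FPKM (fragments per length of transcript and depth of library) plus 1, and 1 was subtracted to give the levels below. Of all values, 40.3% carry more than 6 significant digits, as do 23 of the 28 subunit values, and it is not stated whether a value sums several entries of a gene. Levels are therefore those listed per symbol, and levels of different genes and shares of a sum carry this limit. Single libraries are not given, so no difference could be tested or compared with replicate error. Ratios are of FPKM plus 1, with the synj1+/- label over the synj1+/+ label, which understates differences of low genes. A gene was counted as past the fold where the log2 of this ratio was at least 0.32 in either direction. As the tissue is bulk spinal cord, fewer cells of a type and less RNA per cell cannot be told apart.

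SYNJ1, the gene for the phosphoinositide phosphatase synaptojanin 1, runs against the genotype labels. Above the lesion its level was 1904 FPKM under the synj1+/+ label and 2403 FPKM under the synj1+/- label, a ratio of 1.26. Below the lesion the levels were 1846 and 2592 FPKM, a ratio of 1.40. Directions are therefore given by label throughout. The labelled tissue was checked against position markers. All 5 thoracic HOX genes of the marker list were listed above the lesion, whereas the forebrain gene EMX1 was not listed.

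AMPA receptors are glutamate-gated channels that carry most fast excitatory transmission in the spinal cord, and the GRIA2 subunit limits their calcium permeability. NMDA receptors need both glutamate and a co-agonist, glycine or D-serine, and open only when the membrane is depolarised, so that calcium enters when presynaptic and postsynaptic activity coincide. Every NMDA receptor contains GRIN1, the GRIN2 subunits set its kinetics and magnesium block, and GRIN3 subunits lower its calcium permeability.

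Above the lesion, GRIN2B was the only subunit past the fold, and it was past the fold below the lesion as well, together with GRIN2D. GRIN2B was higher under the synj1+/- label by nearly the same ratio at each site, 1.58 above and 1.59 below. The AMPA subunits and GRIN1 differed between the labels by less than 1.1-fold wherever they were listed. In all, 1 of 9 listed subunits (11.1%) was past the fold upward above the lesion, where 4.18% of all genes were. Below the lesion 2 of 5 (40%) were past it upward, where 8.06% of all genes were. Relative to the neuron marker median there, a log2 ratio of 0.19, GRIN2B alone was past the fold. On that scale 1.89% of all genes were past it upward and 26.2% downward. The markers of GABA and glycine neurons had a higher median below the lesion, 0.38, and centring on that median was not done. No subunit was past the fold downward, as were 7.45% of all genes above and 11.5% below. At the stricter ratio of 1.5, GRIN2B alone was past the fold at each site, where 0.791% of all genes above and 1.16% below were past it upward. Downward, 1.94% of all genes above and 4.38% below were past the stricter ratio, and 0 subunits were.

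**Figure D1:**
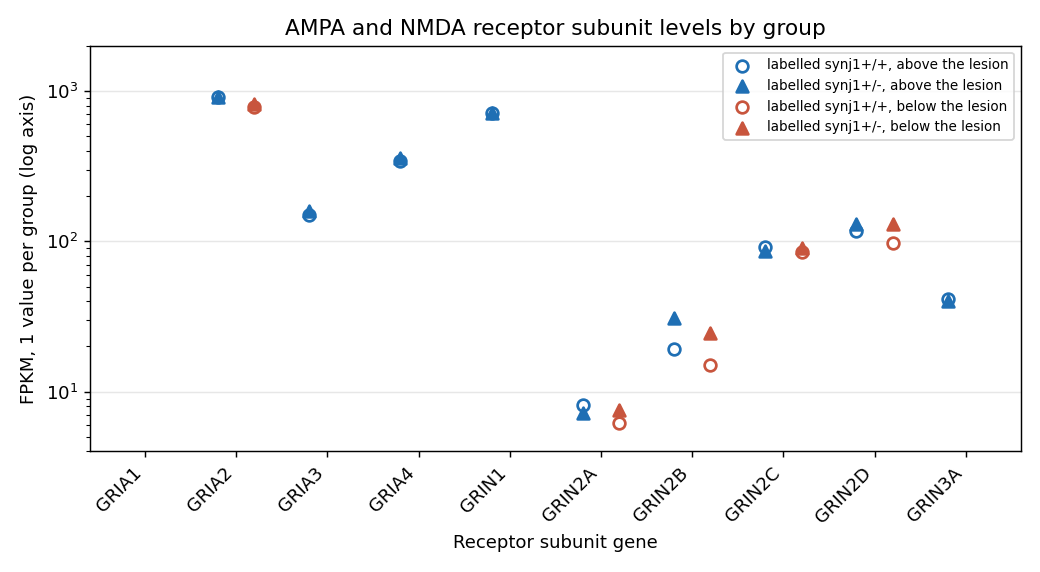
Levels of the receptor subunits in FPKM on a log axis, with 1 value per group (circles, labelled synj1+/+; triangles, labelled synj1+/-; blue, above the lesion; red, below the lesion) and no error bar because the table holds no single libraries. GRIA2 sits highest and GRIN2A lowest in every group, and for GRIN2B the triangle lies above the circle at each site; GRIA1 has no point because it was not listed.

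GRIA2 (chr3:80681450-80802835, minus strand, GRCm38) was the most abundant subunit in all 4 groups. Its level above the lesion was 914 FPKM under the synj1+/+ label and 915 FPKM under the synj1+/- label, a ratio of 1.00. Below the lesion it was 788 and 819 FPKM, a ratio of 1.04. GRIA2 therefore lay close to a ratio of 1 at both sites.

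GRIA4 (chr9:4417896-4796234, minus strand) and GRIA3 (chrX:41400854-41678601, plus strand) encode the other AMPA subunits that were listed. GRIA4 stood at 342 FPKM and 361 FPKM above the lesion, in the order synj1+/+ and synj1+/-, a ratio of 1.06. GRIA3 stood at 151 FPKM and 161 FPKM, a ratio of 1.07. Both were slightly higher under the synj1+/- label, well inside the fold. Of the summed FPKM of these 3 AMPA genes above the lesion, GRIA2 made up 65.0% under the synj1+/+ label and 63.7% under the synj1+/- label. GRIA4 made up 24.3% and 25.1%, and GRIA3 made up 10.7% and 11.2%, so the composition shifted by little more than 1 percentage point.

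GRIN1 (chr2:25291181-25319187, minus strand), the obligatory NMDA subunit, was the second most abundant subunit above the lesion. It was at 721 FPKM under the synj1+/+ label and 711 FPKM under the synj1+/- label, a ratio of 0.987. Relative to the summed GRIN2 genes, GRIN1 was 3.04 times as abundant under the synj1+/+ label and 2.78 times under the synj1+/- label. GRIN3A (chr4:49661611-49845744, minus strand) likewise differed little, with 41.5 and 40.4 FPKM above the lesion and a ratio of 0.974. The other GRIN3 gene, GRIN3B, is not among the 10 subunits and was at 11.8 and 13.6 FPKM above the lesion and at 13.1 and 15.8 FPKM below.

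GRIN2B (chr6:135713233-136173511, minus strand) encodes a slowly deactivating NMDA subunit that is abundant early in development and is found in the adult dorsal horn. Above the lesion its level was 19.1 FPKM under the synj1+/+ label and 30.9 FPKM under the synj1+/- label, a log2 ratio of 0.66. Of all genes above the lesion, 0.498% had a log2 ratio that high, and 1.36% had one as far from 0 in the other direction. Below the lesion its level was 15.0 FPKM under the synj1+/+ label and 24.5 FPKM under the synj1+/- label, a log2 ratio of 0.67. Of all genes below the lesion, 0.657% reached that ratio, and 3.19% were as far from 0 in the other direction. GRIN2B was thus the subunit with the highest ratio at each site. Both of its synj1+/- values exceeded both of its synj1+/+ values, which also held for GRIN2D and for GRIN3B. The sites were normalised separately and may come from the same mice, so they do not serve as replicates. Among genes of a like level, with a mean of 10 to 50 FPKM, a ratio of 1.5 or more upward was held by 0.865% of 5088 genes above and 1.26% of 4825 genes below. Downward, it was held by 1.83% above and 4.39% below. This comparison with genes of a like level was chosen after seeing the data.

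GRIN2D (chr7:45831883-45878378, minus strand) encodes a subunit with very slow deactivation and weak magnesium block. Above the lesion it was at 118 FPKM under the synj1+/+ label and 131 FPKM under the synj1+/- label, a ratio of 1.11 that 16.8% of all genes reached, with 20.8% as far in the other direction. Below the lesion it was at 97.6 FPKM and 131 FPKM, a ratio of 1.34 that 3.91% of all genes reached, with 7.82% as far in the other direction. The values under the synj1+/- label were alike at both sites, and the value under the synj1+/+ label below the lesion was the lowest. In the GENCODE annotation, the gene for GRIN2D overlaps KDELR1 (chr7:45872772-45883732), a receptor that returns proteins to the endoplasmic reticulum, on the opposite strand. From the RefSeq start of Grin2d, just before which chr7:45866682-45866931 lies, the gene would not reach KDELR1, so the overlap depends on the annotation. The library kit is not stated to mark strand, so reads from such an overlap could not be assigned. KDELR1 differed in the other direction from GRIN2D, with 42.1 and 38.6 FPKM above the lesion and 48.2 and 41.5 FPKM below.

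GRIN2C (chr11:115249169-115267243, minus strand), known for its expression in cerebellar granule cells and astrocytes, was the next most abundant GRIN2 gene. It was at 91.8 FPKM under the synj1+/+ label and 86.5 FPKM under the synj1+/- label above the lesion, a ratio of 0.943. Below the lesion the values were 84.6 and 89.8 FPKM, a ratio of 1.06. The direction thus differed between the sites as deposited, with small ratios at both, but relative to the neuron marker median GRIN2C was lower under the synj1+/- label below the lesion too. GRIN2A (chr16:9567898-9995560, minus strand), the fast subunit that predominates in mature forebrain, had the lowest level of the family. It was at 8.16 and 7.20 FPKM above the lesion, a ratio of 0.895, and at 6.20 and 7.52 FPKM below, a ratio of 1.18. Its direction also differed between the sites, and the difference between sites was not tested for either gene. GRIN2A lies on chromosome 16 with SYNJ1, 80.9 Mb away.

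**Figure D2:**
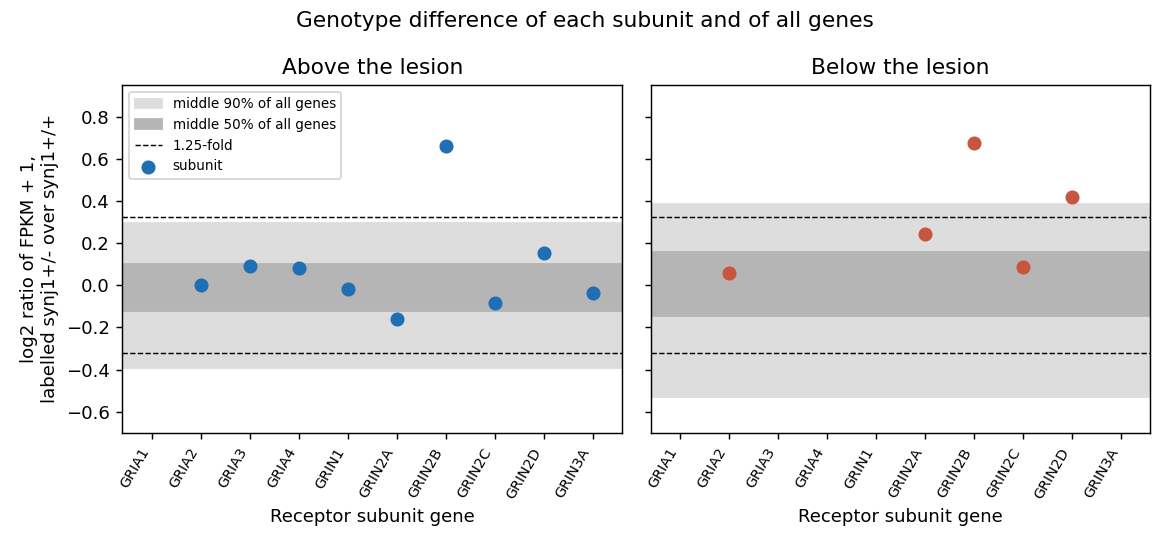
Log2 ratio of FPKM plus 1 (labelled synj1+/- over synj1+/+) of each listed subunit above (blue) and below (red) the lesion, over bands that hold the middle 50% and the middle 90% of all genes at that site; dashed lines mark a log2 ratio of 0.32 in either direction. GRIN2B lies outside the wider band at each site, and GRIN2D lies outside it below the lesion with a log2 ratio of 0.42.

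The composition of the GRIN2 family was compared as each gene's percent of the summed GRIN2 FPKM. Above the lesion, GRIN2B made up 8.08% under the synj1+/+ label and 12.1% under the synj1+/- label, and below the lesion 7.36% and 9.69%. GRIN2C made up 38.7% and 33.8% above and 41.6% and 35.6% below, so its share was smaller under the synj1+/- label at both sites. GRIN2D held the largest share in every group, from 48.0% to 51.8%, and GRIN2A held from 2.81% to 3.44%. The summed GRIN2 FPKM itself was 237 and 256 above the lesion and 203 and 253 below. The ratio of GRIN2B to GRIN2A was 2.35 under the synj1+/+ label and 4.29 under the synj1+/- label above the lesion, and 2.42 and 3.25 below. The ratio of GRIN2D to GRIN2C was 1.28 and 1.52 above and 1.15 and 1.46 below.

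**Figure D3:**
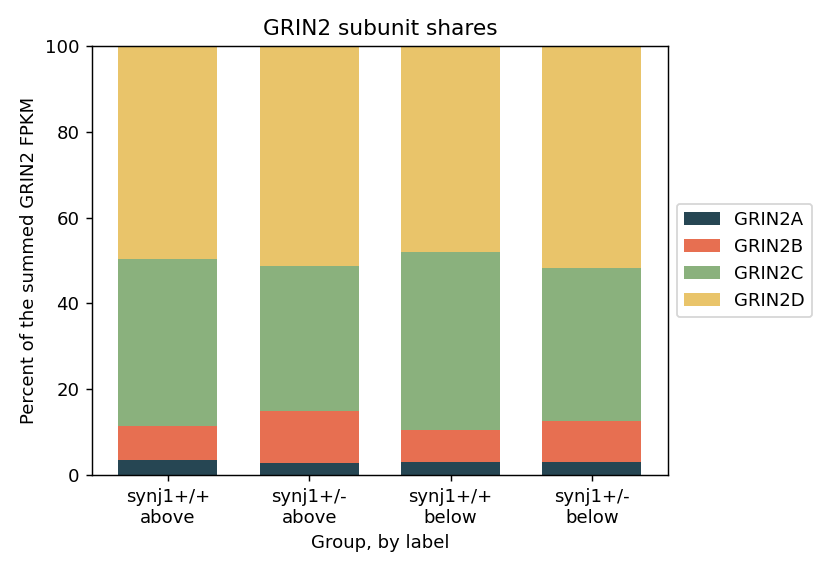
Percent of the summed FPKM of the 4 GRIN2 genes that each made up in each group, with 1 value per group and no error bar. GRIN2D and GRIN2C fill most of every bar, and the GRIN2B segment is wider under the synj1+/- label at each site, 12.1% against 8.08% above the lesion.

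In order of level above the lesion, the subunits ran GRIA2, GRIN1, GRIA4, GRIA3, GRIN2D, GRIN2C, GRIN3A, GRIN2B and GRIN2A under both labels. Below the lesion the 5 listed subunits kept that order under both labels. Without single libraries it cannot be said which neighbours in this order differ beyond their spread. Among all genes under the synj1+/+ label above the lesion, GRIA2 stood at percentile 98.0, GRIN1 at 97.1, GRIN2B at 34.2 and GRIN2A at 17.6 of the FPKM levels. Levels of different genes and shares of a sum are to be read with care, because across genes FPKM was higher with a greater number of annotated coding transcripts (Spearman's rho from 0.42 to 0.45 in the 4 groups, over genes, which are not independent replicates). GRIN1 has 8 such transcripts, GRIN2B has 6, GRIN2A and GRIN2D have 3 each, and GRIA2 and GRIN2C have 2 each.

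Levels below and above the lesion can be set side by side only as a description, because the sites were normalised separately. Under the synj1+/+ label all 5 subunits listed at both sites were lower below the lesion, with ratios of below over above from 0.786 for GRIN2A to 0.922 for GRIN2C, where the median of all shared genes was 0.999. Under the synj1+/- label the ratios ran from 0.799 for GRIN2B to 1.04 for GRIN2A and GRIN2C, where the median of all shared genes was 1.02. GRIN2B was lower below than above the lesion by nearly the same ratio under each label. Of 65 partner genes listed at both sites, the postsynaptic scaffold genes DLGAP1 and SHANK3 and the serine synthesis gene PHGDH had the patterns nearest to that of GRIA2 across the 4 groups, after each gene was centred on its own mean, so that levels played no part. Their Euclidean distances on the centred log2 scale were 0.08, 0.09 and 0.11, over 4 values only.

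Promoter sequence was read for the GRIN2 genes with the largest shares. Of the 10 subunits, 5 (Gria2, Gria4, Grin1, Grin2c and Grin2d) matched the RefSeq promoter table for GRCm38.p6. The 250 bases before the RefSeq start of Grin2d (chr7:45866682-45866931) and Grin2c (chr11:115267244-115267493) are shown 5′ to 3′ on the minus strand, with each GC box (GGGCGG on either strand) in capitals. They are shown because the ratio of GRIN2D to GRIN2C was higher under the synj1+/- label at both sites. The stretch of Grin2d lies inside the GENCODE span of that gene, which on the minus strand starts at position 45878378. The stretch of Grin2c directly precedes the GENCODE start at position 115267243. The stretches are thus not placed alike, and their counts of GC boxes carry this limit.
Grin2d: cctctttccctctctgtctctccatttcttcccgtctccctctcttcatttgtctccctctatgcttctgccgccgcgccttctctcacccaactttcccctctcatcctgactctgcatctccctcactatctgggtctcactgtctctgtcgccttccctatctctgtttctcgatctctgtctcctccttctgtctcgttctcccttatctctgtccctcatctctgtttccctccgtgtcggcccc
Grin2c: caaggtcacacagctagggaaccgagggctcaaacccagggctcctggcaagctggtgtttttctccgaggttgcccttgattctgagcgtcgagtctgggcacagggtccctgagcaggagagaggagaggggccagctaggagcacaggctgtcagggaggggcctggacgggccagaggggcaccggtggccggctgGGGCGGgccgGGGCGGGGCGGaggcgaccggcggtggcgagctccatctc
Grin2c holds 3 GC boxes, of which the last 2 overlap each other, and Grin2d holds 0. Of 32851 promoters of that length, 32.7% hold the motif, as does 1 of the 5 matched subunits. The match describes these letters and not a binding site.

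Partner genes of the receptors were taken from 9 lists with 80 genes, of which 77 were listed above and 65 below the lesion. Above the lesion 45 of 77 (58.4%, against 49.0% of all genes) were higher under the synj1+/- label, with a median log2 ratio of 0.04 where all genes had -0.00388, and 1 of 77 was past the fold upward and 3 downward, against 4.18% and 7.45% of all genes. Below the lesion 57 of 65 (87.7%, against 52.8% of all genes) were higher, with a median of 0.24 where all genes had 0.01, and 14 (21.5%) were past the fold upward and 0 downward, against 8.06% and 11.5% of all genes. The counts of the single lists that follow are to be read beside these shares of all genes. The listed subunits lay at a median of 0.00 above and 0.24 below, close to the partner genes at each site.

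The kainate receptor subunit GRIK1 was the partner gene that differed most above the lesion. Above the lesion it was at 26.8 FPKM under the synj1+/+ label and 54.5 FPKM under the synj1+/- label, a log2 ratio of 0.99. Below the lesion it was at 27.4 and 40.5 FPKM, a log2 ratio of 0.54 that CACNG3, CAMK2A, NPTX1 and LRRC7 exceeded. Besides GRIN2B, GRIK1 was the only gene among the subunits and their partners that was past the fold upward at both sites. The delta receptor gene GRID1 was past the fold below the lesion, at 63.6 and 82.3 FPKM.

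AMPA receptor auxiliary and assembly proteins bind the channel and set its gating and delivery. Of these, 15 of 21 were higher above the lesion, with 0 past the fold, and 17 of 18 (94.4%) were higher below, with 4 (22.2%) past it, against 52.8% and 8.06% of all genes. CACNG3, a transmembrane AMPA receptor regulatory protein, was at 5.96 and 9.54 FPKM below the lesion. NRN1 was at 123 and 171 FPKM, SHISA9 at 39.6 and 52.9 FPKM, and CACNG5 at 11.6 and 14.9 FPKM. Of the genes for trafficking and clustering, NPTX1 and NPTXR, a neuronal pentraxin and the pentraxin receptor that gather AMPA receptors at synapses, were past the fold below the lesion. NPTX1 was at 28.7 and 42.6 FPKM there, and NPTXR at 14.7 and 20.8 FPKM.

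Of the postsynaptic density scaffolds, all 13 listed below the lesion were higher under the synj1+/- label, and 3 were past the fold. LRRC7 differed in opposite directions at the sites, with 44.8 and 34.4 FPKM above and 22.7 and 33.6 FPKM below. DLGAP3 was at 188 and 242 FPKM below the lesion, and DLG2 at 503 and 639 FPKM. Of the signalling partners, 8 of 9 were higher below the lesion. CAMK2A, the kinase subunit that binds NMDA receptors after calcium entry, was at 115 and 169 FPKM there, and NOS1 and RASGRF1 were past the fold with log2 ratios of 0.34 and 0.33. Of the ADAR gene family, ADAR and ADARB2 had log2 ratios of 0.24 and 0.28 below the lesion. ADARB1, which edits GRIA2, was not listed, and RNA editing itself was not measured. Genes for the supply of NMDA receptor co-agonists differed the other way above the lesion, where 0 of 7 were higher. SRR, which makes D-serine, was at 225 and 178 FPKM there, and DAO, which degrades it, at 33.2 and 26.3 FPKM. Below the lesion 5 of these 7 were higher and 0 were past the fold.

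Markers of neurons and of other cell types also differed between the labels. Below the lesion all 11 listed neuron markers were higher under the synj1+/- label, with a median log2 ratio of 0.19 and a summed level of 9820 and 12146 FPKM, in the order synj1+/+ and synj1+/-. Above the lesion 8 of 13 were higher, with a median of 0.03 and sums of 11742 and 13073 FPKM. The highest log2 ratio of a neuron marker was 0.26 above the lesion and 0.54 below, both under that of GRIN2B. The 4 markers of GABA and glycine neurons were all past the fold below the lesion, with a median of 0.38, and had a median of 0.05 above. Of the glutamatergic neuron markers, SLC17A6, a vesicular glutamate transporter, had log2 ratios of 0.09 above and 0.24 below. The related transporter SLC17A7 had a log2 ratio of 1.10 below the lesion, above that of GRIN2B, at a low level of 0.639 and 2.51 FPKM. Motor neuron markers had medians of -0.05 above and 0.18 below. Relative to the neuron marker median below the lesion, the log2 ratio of GRIN2B was 0.49 and that of GRIN2D was 0.23, inside the fold. On that scale 3 of the 5 subunits were higher and 2 lower, GRIA2 at -0.13 and GRIN2C at -0.10, where all 5 were higher as deposited. Of all genes below the lesion, 20.8% were higher on that scale and 52.8% as deposited. Of the partner genes below the lesion, 41 of 65 were higher on that scale, and 5 were past the fold upward, against the same 20.8% and 1.89% of all genes. Above the lesion, 4 of 9 subunits were higher on that scale, against 41.8% of all genes, and 5 of 9 as deposited, against 49.0%.

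The 4 erythroid markers, all globin genes, were past the fold upward above the lesion, with a median log2 ratio of 2.21 and sums of 246 and 1122 FPKM. Below the lesion their median was 0.32, with sums of 625 and 818 FPKM. Endothelial markers had medians of 0.10 above and -0.13 below. Fibroblast markers had median log2 ratios of -0.52 above and -2.91 below the lesion, with sums of 27.0 and 16.3 FPKM above and 349 and 43.5 FPKM below. Microglia and macrophage markers had medians of -0.41 and -0.64, and astrocyte markers of -0.26 and -0.18. All 4 oligodendrocyte precursor markers were lower at both sites, with sums of 167 and 141 FPKM above and 157 and 131 FPKM below. Of the oligodendrocyte markers, MOG, MOBP and CLDN11 were listed, with a median of -0.18 above and -0.09 below, and MBP, MAG and CNP were not listed. The part of these cell types in the values of the subunits was not tested.

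**Figure D4:**
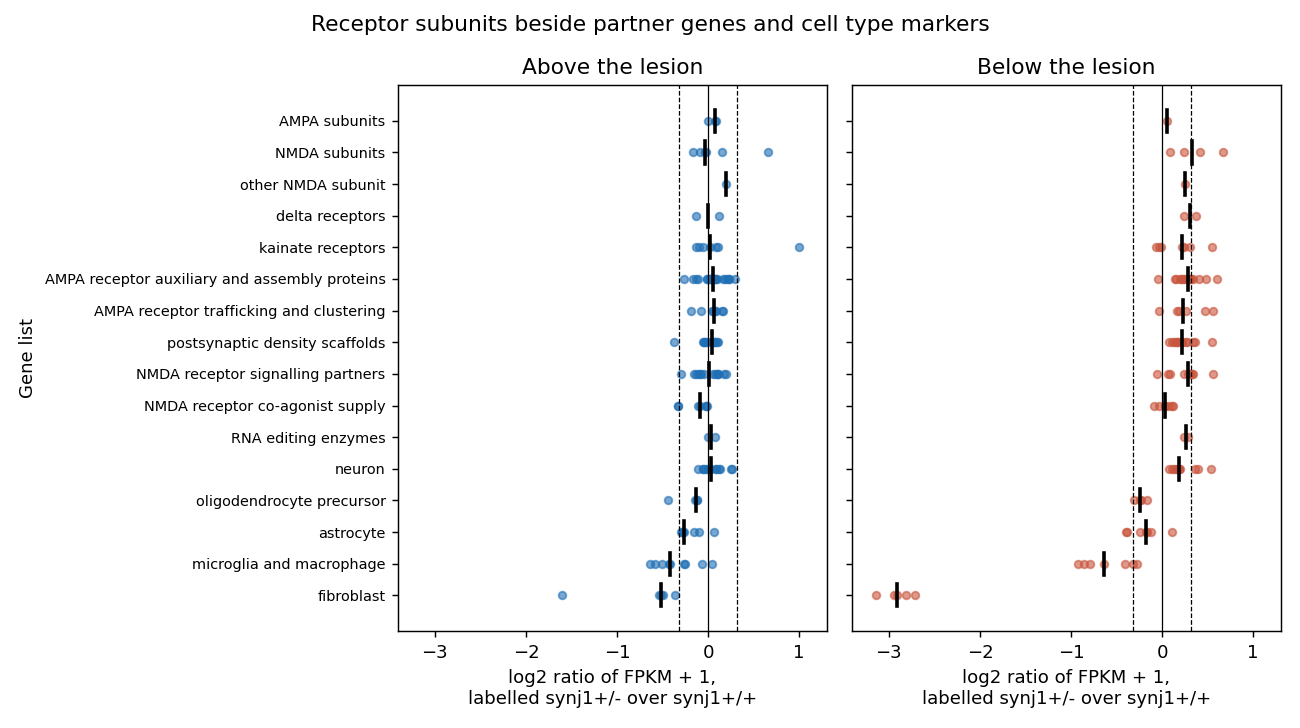
Log2 ratio of FPKM plus 1 (labelled synj1+/- over synj1+/+) of each listed gene (points) and the median (bars) for the subunits, their partner lists and 5 marker lists; dashed lines mark a log2 ratio of 0.32 in either direction. Below the lesion the NMDA subunits and most partner lists lie to the right of 0 with the neuron markers (relative to the neuron marker median, GRIN2C would lie to the left at -0.10), and the fibroblast markers lie farthest to the left at a median of -2.91.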

How the data were processed

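RNA-seq libraries were assigned to groups from their labelled genotype and site. The study's methods and the submitters' processing notes name STAR 2.5.4b, Cuffdiff 1.3.0 and the genome build GRCm38.p6. Within a site, reads were removed at random to the size of the smallest library, and values were normalised by upper quartile, so libraries of a site had the same number of reads, and the table holds no read counts. The table that the authors deposited gives, per gene and site, 1 value for each genotype, read here as FPKM plus 1 because 19 values are exactly 1 and none is lower. Its other columns hold the authors' fold changes, p-values, q-values and calls and were not used, nor was a shorter list of the same tests.

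From the values, log2 ratios of FPKM plus 1, counts past a log2 ratio of 0.32, shares, and medians were computed with Python 3.11.15, numpy 2.4.6, pandas 2.3.3, scipy 1.17.1 and matplotlib 3.10.9. The arithmetic of the log2 ratio and of the fold count was checked on simulated folds without noise. That check does not bear on the reading of the values as FPKM plus 1 or on the choice of fold. All genes of a site served as background. Gene positions and transcripts come from GENCODE M21 and promoters from RefSeq. All subunits were named, and of each partner list the highest and lowest log2 ratio and up to 4 genes past the fold could be named, together with SYNJ1, APOE and the genes nearest to GRIA2 and GRIN1; GRIN1 was not listed at both sites and has none. KDELR1 was named for its overlap with GRIN2D in GENCODE M21. APOE, whose reads may come from mouse or human sequence, had log2 ratios of -0.48 above and 0.24 below the lesion. The members and lists were chosen with earlier results of these data known. Alternatives were other pseudocounts, scalings, a filter on low values, a fold of 1.5, and the mean in place of the median.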

Additional observations from a re-analysis of the deposited data

How the results depend on the processing

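The table holds 1 value per group, so results without each replicate could not be computed, no test was made, and a counting error could not be computed because the table holds no read counts. No paired analysis was possible because the table carries no columns of single libraries. Without a replicate spread, a log2 ratio was taken as moved when it changed by more than 0.1, a share when it changed by more than 5 percentage points, and a count when it changed by more than 1.5 times. Of 144 values under the alternatives, 135 did not move, but many of these could not have moved. A fold of 1.5 changes no log2 ratio and no median. The filter at a mean of 1 FPKM removed no subunit, since the lowest listed level was 6.20 FPKM. The all-gene medians used for centring were -0.00388 above the lesion and 0.0144 below, far smaller than 0.1. The count of 135 is therefore not a measure of robustness. Centring on the neuron marker median, a shift of 0.19 on the log2 scale below the lesion, moved 7 values, among them GRIA2 and GRIN2C below the lesion, which then had log2 ratios of -0.13 and -0.10 in place of 0.06 and 0.09, both inside the fold. There the median log2 ratio of the subunits below the lesion was 0.0568 in place of 0.243, and 1 subunit in place of 2 was past the fold. With a fold of 1.5, 1 subunit in place of 2 was past it below the lesion. With a pseudocount of 5, the log2 ratio of GRIN2B below the lesion was 0.56 in place of 0.67. Centring on all genes, a filter at a mean of 1 FPKM, a pseudocount of 0.1, the mean over the subunits, and shares from the values as deposited moved 0 values.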
